A study of Rattus norvegicus with 10 samples.

Results

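Growth factor receptors of the OL lineage were followed across 5 groups of primary rat cells. The set comprised 9 of the 23487 genes in the count table, chosen by their symbols in the deposited comparison of miR-145 with miR-ctl. They were the fibroblast growth factor (FGF) receptors Fgfr1, Fgfr2 and Fgfr3, the epidermal growth factor (EGF) receptor family members Erbb2, Erbb3, Erbb4 and Egfr, the insulin-like growth factor (IGF) receptor Igf1r, and Ntrk2, which encodes TrkB, the receptor of brain-derived neurotrophic factor. Each symbol belonged to 1 gene ID, and all 9 passed the filter on low counts in every comparison.

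RNAseq was performed on 10 libraries, 2 for each group, from primary OPCs (oligodendrocyte progenitor cells) shaken off mixed glial cultures of neonatal Sprague-Dawley rat cortex. OLs (oligodendrocytes) were differentiated in medium with T3 and CNTF and were assayed 5 days after transfection with a miR-145 mimic (OL miR-145), with miR-145 and miR-219 mimics (OL miR-145+miR-219) or with a scrambled mimic (OL miR-ctl). OPCs were kept in medium with FGF2 and PDGFAA and were assayed 24 h after transfection with a miR-145 inhibitor (OPC anti-miR-145) or a scrambled inhibitor (OPC anti-miR-ctl). All oligonucleotides were used at 30 nM, and both media contained insulin, a ligand that binds the IGF receptor weakly. A treatment tag of both OL miR-145 libraries names miR-219 as well, while their titles name miR-145 alone, so a sentence on these libraries rests on the titles. The study's sequencing methods name lentiviral transduction for miR-145, while its results and the labels name mimics, which are followed here. The labels do not say whether the libraries of a group came from separate cultures. The study's reporting summary counts primary cultures of individual mice as replicates, without naming rat cultures or these libraries. The p-values measure the spread between these libraries.

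These receptors are tyrosine kinases of the cell surface that act in pairs and, once a ligand is bound, signal through adaptor proteins to the Ras and ERK cascade and to PI3K and Akt. In the OL lineage FGF2, together with PDGF, keeps OPCs dividing, Fgfr1 is the form best known from progenitors, and Fgfr2 is known from mature OLs and myelin. ErbB3 binds neuregulins but has a weak kinase of its own and signals with ErbB2, which has no ligand of its own. IGF-1 supports OL survival and myelination, and TrkB is known from glia as a full-length kinase and as a shortened form without the kinase.

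The mature miRNAs that define the treatments are shown because the mimic and inhibitor comparisons rest on them. They are the rat sequences of RefSeq (GRCr8), with the seed (bases 2 to 8) in capitals. The labels give the miR-145 mimic as identical to mature miR-145-5p, and the form of the miR-219 mimic is not given in the sources used here, so rno-miR-219a-5p is shown as a RefSeq form of the name.
rno-miR-145-5p: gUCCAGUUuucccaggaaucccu
rno-miR-219a-5p: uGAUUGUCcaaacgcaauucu
The seeds differ, UCCAGUU for miR-145-5p and GAUUGUC for miR-219a-5p. Target sites in the receptor transcripts were not analysed here.

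Library totals ran from 33505706 to 42684206 counts. Levels are given as CPM (library counts scaled to a common total) after TMM scaling over the 10 libraries, and they compare libraries for 1 gene, not 1 gene with another, since no transcript lengths were used. Oligodendrocyte markers (10 genes) summed to between 16111 and 35453 CPM in OL libraries and between 1121 and 1326 CPM in OPC libraries, while OPC markers (5 genes of the list with an ID) summed to between 1449 and 2103 CPM in OL libraries and between 3612 and 4652 CPM in OPC libraries. Of the OPC markers, Pdgfra, Cspg4 and Ptprz1 were lower in each OL library than in each OPC library. Gpr17 and C1ql1 were higher, with Gpr17 at 375 and 265 CPM in OL miR-ctl and 25.8 and 21.4 CPM in OPC anti-miR-ctl. RNA of astrocyte genes was also present in the OL libraries, where the astrocyte list (10 genes) summed to between 5899 and 14488 CPM, against 554 to 798 CPM in OPC libraries. Aqp4, a water channel of astrocytes, was between 168 and 450 CPM in OL libraries and between 0.164 and 0.920 CPM in OPC libraries. Of the astrocyte list Gjb6 had 0 counts in 2 OPC libraries. Microglial markers (10 genes) summed to between 320 and 899 CPM in OL libraries and between 842 and 1037 CPM in OPC libraries. Fibroblast and mural markers reached 85.3 CPM, endothelial markers 21.1 CPM and neuron markers 137 CPM in the highest library. In bulk RNA, a change in the number of cells of a type and a change in RNA per cell cannot be told apart.

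**Figure D1:**
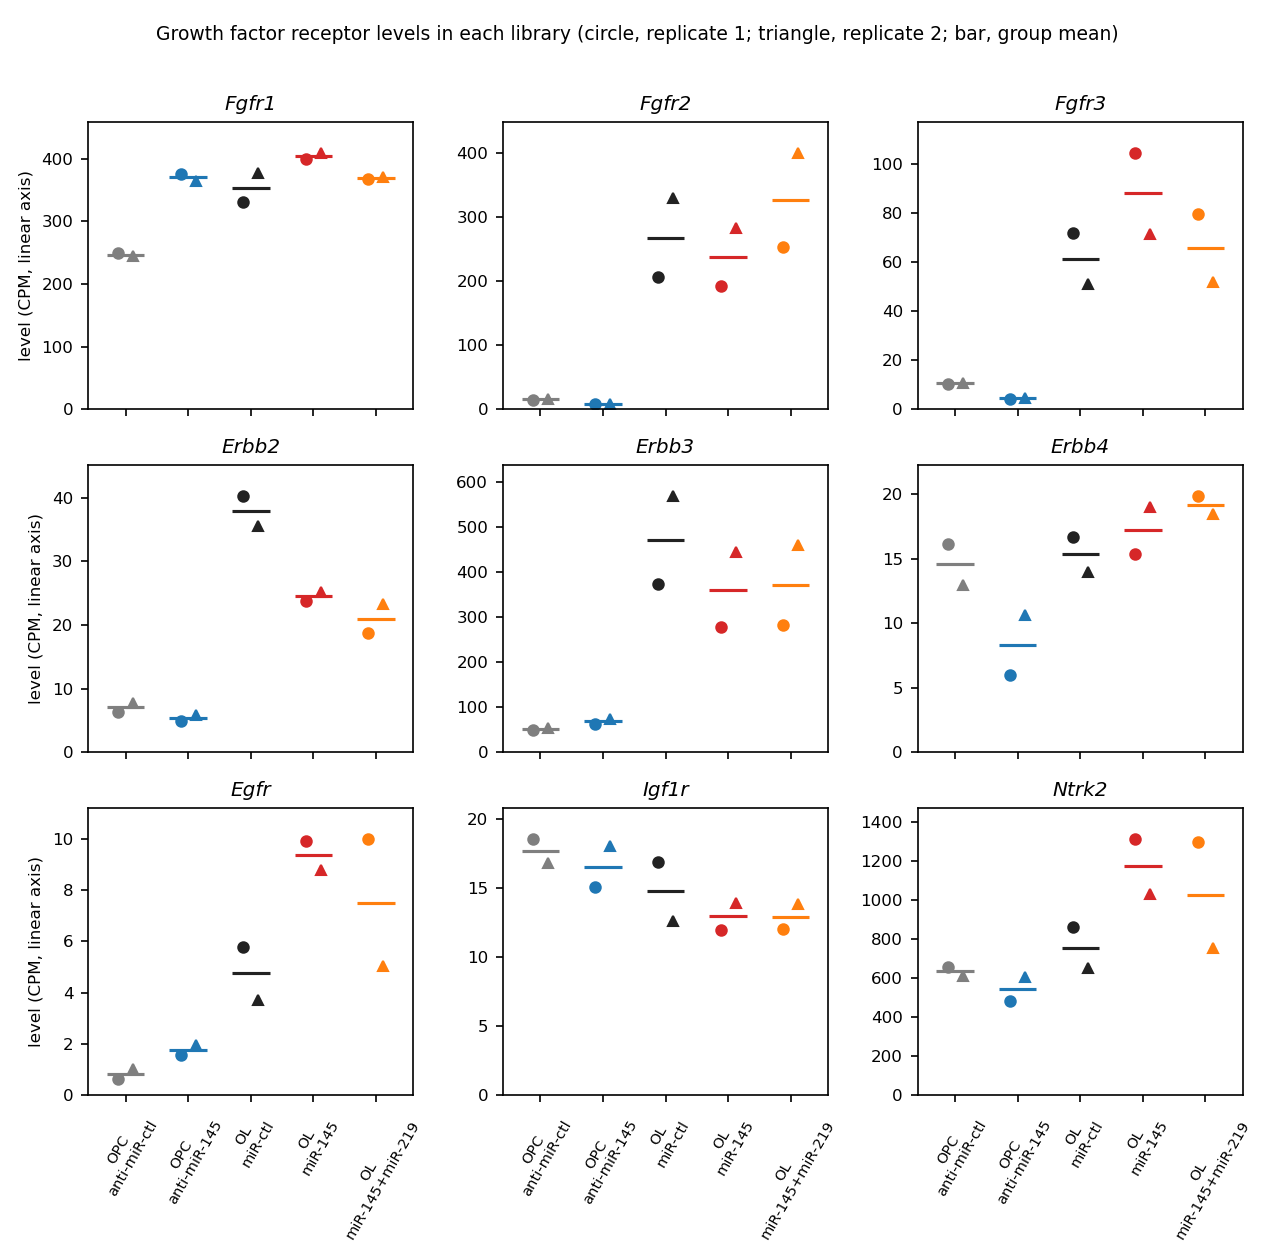
Level of each receptor in CPM (linear axes from 0) in each library, by group. Circles are replicate 1, triangles replicate 2 and bars group means. Fgfr2, Fgfr3, Erbb2, Erbb3 and Egfr were higher in all 6 OL libraries than in all 4 OPC libraries, while Igf1r stayed between 11.96 and 18.5 CPM. The share of all genes with such a difference was not counted.

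The first question was how receptor levels differ between OLs and OPCs that received control oligonucleotides. The groups differ in cell stage, medium, control oligonucleotide and time after transfection together, which cannot be told apart. In OL miR-ctl, 6 of the 9 receptors were increased and none was decreased relative to OPC anti-miR-ctl (edgeR quasi-likelihood test, Benjamini-Hochberg adjusted p under 0.05). Of all 15721 genes tested, 57.5% were called, 28.8% higher and 28.7% lower. DESeq2 called the same number, 6, and 53.4% of all genes. The groups did not overlap for 6 receptors, all higher, against 81.8% of all genes (41.7% higher and 40.1% lower). The median log2 fold change was 2.41 over the receptors and 0.01 over all genes tested.

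Fgfr2 showed the largest difference of the 9. It was at 207 and 329 CPM in the OL miR-ctl libraries and at 14.8 and 15.9 CPM in the OPC anti-miR-ctl libraries. The OL values lay far above the OPC values, although the OL libraries differed from each other. The log2 fold change was 4.11 ± 0.26 (SE, n = 2 per group, edgeR adjusted p = 0.00020), a 17.3-fold increase. Fgfr3, the third FGF receptor, was at 71.6 and 50.9 CPM in OL miR-ctl and at 10.5 and 10.7 CPM in OPC anti-miR-ctl. Its log2 fold change was 2.52 ± 0.18 (edgeR adjusted p = 0.00033). Fgfr1 differed least among the receptors called, with 330 and 377 CPM in OL miR-ctl and 250 and 244 CPM in OPC anti-miR-ctl. The groups did not overlap, and its log2 fold change was 0.51 ± 0.10 (edgeR adjusted p = 0.0079). Without replicate 1 or replicate 2 of OPC anti-miR-ctl the adjusted p of Fgfr1 was 0.085 or 0.10, above the threshold.

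Within the ErbB family, 3 of 4 genes were increased. Erbb3, the neuregulin receptor, was at 375 and 569 CPM in OL miR-ctl and at 49.8 and 54.3 CPM in OPC anti-miR-ctl, a log2 fold change of 3.17 ± 0.22 (edgeR adjusted p = 0.00029). Erbb2, its signalling partner, was at 40.3 and 35.6 CPM in OL miR-ctl and at 6.37 and 7.80 CPM in OPC anti-miR-ctl, a log2 fold change of 2.41 ± 0.14 (edgeR adjusted p = 0.00018). The pair of partners thus stood higher together in OLs. Egfr, the EGF receptor, was at 5.80 and 3.71 CPM in OL miR-ctl and at 0.623 and 1.04 CPM in OPC anti-miR-ctl, where it rested on 27 and 38 counts. Its log2 fold change was 2.51 ± 0.37 (edgeR adjusted p = 0.0034). Erbb4, the other neuregulin receptor, was at 16.7 and 14.0 CPM in OL miR-ctl and at 16.2 and 13.0 CPM in OPC anti-miR-ctl. These groups overlapped, and the log2 fold change of 0.06 ± 0.16 (edgeR adjusted p = 0.76) had a 95% interval from -0.35 to 0.47.

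Igf1r and Ntrk2 were not called. Igf1r was at 16.9 and 12.6 CPM in OL miR-ctl and at 18.5 and 16.8 CPM in OPC anti-miR-ctl, with a log2 fold change of -0.27 ± 0.17 (95% interval -0.70 to 0.15, edgeR adjusted p = 0.22). Ntrk2 was at 864 and 652 CPM in OL miR-ctl and at 658 and 613 CPM in OPC anti-miR-ctl, with a log2 fold change of 0.24 ± 0.15 (95% interval -0.14 to 0.62, edgeR adjusted p = 0.22). The gene counts do not separate the shortened from the full-length form of TrkB. Astrocyte markers moved with this comparison: 9 of 10 were called higher in OL miR-ctl, with Gfap, an astrocyte filament protein, at 4794 and 4173 CPM against 8.12 and 7.80 CPM. Their part in the receptor values was not tested.

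Over all 10 libraries, the OL values of Fgfr2 ran from 193 to 400 CPM (median 268, 6 libraries) and the OPC values from 7.49 to 15.9 CPM (median 11.4, 4 libraries). For Erbb3 they ran from 277 to 569 CPM (median 410) in OLs and from 49.8 to 73.6 CPM (median 58.9) in OPCs. The OL and OPC libraries also did not overlap for Fgfr3, Erbb2 and Egfr. They overlapped for Fgfr1, Erbb4, Igf1r and Ntrk2. The share of all genes without overlap between the OL and OPC libraries was not counted. The mean of the highest group was 42.1 times that of the lowest group for Fgfr2, 19.9 times for Fgfr3 and 11.3 times for Egfr, but 1.64 times for Fgfr1 and 1.37 times for Igf1r. Igf1r was the single receptor whose highest group mean was in OPCs (17.7 CPM in OPC anti-miR-ctl), and its neighbouring groups in that order differed by less than their spread.

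Promoter sequences are shown for 4 receptors, 3 that were increased together in OLs and Igf1r, which was not called, to set them beside each other. RefSeq (GRCr8) windows of 300 bases, from 250 bases before to 50 after the gene start and 5′ to 3′ on the strand of the gene, matched 6 of the 9 receptors. Fgfr1, Erbb3 and Ntrk2 had no entry. The windows lie at chr1:194280865-194281164 (Fgfr2, minus strand), chr10:83907351-83907650 (Erbb2, plus strand), chr14:95378376-95378675 (Egfr, plus strand) and chr1:130959747-130960046 (Igf1r, plus strand). Capitals mark the GC box GGGCGG on either strand.
Fgfr2: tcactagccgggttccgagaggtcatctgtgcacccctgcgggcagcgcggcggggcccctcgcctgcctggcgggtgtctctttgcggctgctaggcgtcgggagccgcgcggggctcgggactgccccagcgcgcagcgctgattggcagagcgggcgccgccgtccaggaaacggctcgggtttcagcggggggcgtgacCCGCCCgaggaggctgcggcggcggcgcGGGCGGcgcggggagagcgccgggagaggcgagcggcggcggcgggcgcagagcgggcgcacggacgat
Erbb2: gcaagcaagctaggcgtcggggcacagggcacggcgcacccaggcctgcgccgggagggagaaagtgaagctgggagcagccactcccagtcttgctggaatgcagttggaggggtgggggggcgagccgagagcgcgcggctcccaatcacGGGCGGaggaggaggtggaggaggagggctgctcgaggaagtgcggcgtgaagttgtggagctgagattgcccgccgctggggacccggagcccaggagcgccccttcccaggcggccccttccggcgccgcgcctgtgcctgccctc
Egfr: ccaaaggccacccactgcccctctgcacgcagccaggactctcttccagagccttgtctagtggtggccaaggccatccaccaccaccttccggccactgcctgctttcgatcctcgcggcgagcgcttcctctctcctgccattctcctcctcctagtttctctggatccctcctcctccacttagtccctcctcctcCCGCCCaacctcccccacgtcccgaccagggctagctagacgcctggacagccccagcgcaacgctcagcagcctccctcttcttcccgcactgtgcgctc
Igf1r: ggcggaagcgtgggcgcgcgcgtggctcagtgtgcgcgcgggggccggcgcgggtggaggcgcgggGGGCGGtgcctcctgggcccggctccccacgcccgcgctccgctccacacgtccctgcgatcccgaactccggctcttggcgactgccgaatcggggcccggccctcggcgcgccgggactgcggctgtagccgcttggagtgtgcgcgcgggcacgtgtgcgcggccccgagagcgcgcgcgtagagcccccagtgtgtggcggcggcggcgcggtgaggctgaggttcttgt
The GC box was found in 6 of 6 receptor windows and in 33.1% of the 33469 promoter windows of the same length. The TATA box TATAAA was found in 0 of 6 (14.2% of all), CCAAT in 3 of 6, those of Fgfr2, Fgfr3 and Erbb2 (37.5% of all), and the Sox motifs ACAAAG and ACAATG in 0 of 6 (18.8% and 13.2% of all). No match overlapped one of another motif. The receptor windows held between 64.3% and 78.0% G and C, against a median of 51.7% over all windows. Igf1r and Erbb4, which were not called between OLs and OPCs, also held the GC box, and a match is not evidence of binding.

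The next question was what the miR-145 inhibitor did in OPCs. Of the 9 receptors, 6 were called, where 28.1% of all 15496 genes tested were called. Fgfr1, Erbb3 and Egfr were increased (12.1% of all genes were called higher), and Fgfr2, Fgfr3 and Erbb4 were decreased (16.0% called lower). The groups did not overlap for 8 receptors, 3 higher and 5 lower, against 68.5% of all genes (35.9% higher and 32.7% lower). DESeq2 called 5 receptors and 26.5% of all genes. The median log2 fold change was -0.24 over the receptors and 0.00 over all genes tested.

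The FGF receptors moved in opposite directions. Fgfr1 was at 376 and 364 CPM in OPC anti-miR-145 and at 250 and 244 CPM in OPC anti-miR-ctl, an increase of 0.57 ± 0.08 on the log2 scale (SE, n = 2 per group, edgeR adjusted p = 0.0024). Fgfr2 was at 7.49 and 8.03 CPM with the inhibitor and at 14.8 and 15.9 CPM with its control, a log2 fold change of -0.998 ± 0.11 (edgeR adjusted p = 0.00081). Fgfr3 was at 4.10 and 4.71 CPM with the inhibitor and at 10.5 and 10.7 CPM with its control, a log2 fold change of -1.28 ± 0.13 (edgeR adjusted p = 0.00057). In each of these 3 genes the replicates lay close together and the groups far apart. With the inhibitor, both Fgfr1 libraries lay within the range of the OL libraries (330 to 409 CPM), whereas Fgfr2 and Fgfr3 moved further from theirs. When all 5 groups shared a single fit, Fgfr1 and Fgfr3 were called and Fgfr2 was not (adjusted p = 0.060). Without replicate 1 of OPC anti-miR-ctl, these 3 FGF receptors were the only receptors called, with 2350 of all 15138 genes called.

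The ErbB calls were less firm. Egfr was at 1.56 and 1.98 CPM with the inhibitor (62 and 86 counts) and at 0.623 and 1.04 CPM with its control (27 and 38 counts), an increase of 1.08 ± 0.32 on the log2 scale (edgeR adjusted p = 0.046, DESeq2 adjusted p = 0.077). Erbb3 was at 63.4 and 73.6 CPM with the inhibitor and at 49.8 and 54.3 CPM with its control, an increase of 0.38 ± 0.10 (edgeR adjusted p = 0.029). Erbb4 was at 6.01 and 10.6 CPM with the inhibitor and at 16.2 and 13.0 CPM with its control, a log2 fold change of -0.82 ± 0.25 (edgeR adjusted p = 0.047). The Erbb4 libraries of the inhibitor differed more from each other, in proportion, than those of any other receptor in this group. Without replicate 1 of OPC anti-miR-ctl the adjusted p was 0.27 for Egfr, 0.29 for Erbb3 and 0.10 for Erbb4, and in the single fit of all 5 groups it was 0.12, 0.41 and 0.069. Without replicate 2 of OPC anti-miR-ctl that of Erbb3 was 0.12, and without replicate 2 of OPC anti-miR-145 that of Egfr was 0.070.

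The other 3 receptors did not pass the threshold. Erbb2 was at 4.88 and 5.84 CPM with the inhibitor and at 6.37 and 7.80 CPM with its control (log2 fold change -0.41 ± 0.16, edgeR adjusted p = 0.10). Ntrk2 was at 485 and 607 CPM against 658 and 613 CPM (log2 fold change -0.24 ± 0.11, edgeR adjusted p = 0.17). Igf1r was at 15.1 and 18.0 CPM against 18.5 and 16.8 CPM (log2 fold change -0.11 ± 0.12, 95% interval -0.39 to 0.17, edgeR adjusted p = 0.53). Marker lists moved in this comparison too, in which 12.1% of all genes were called higher and 16.0% lower. The astrocyte list summed to between 554 and 606 CPM with the inhibitor and between 776 and 798 CPM with its control, with 2 of 9 tested genes called higher and 4 lower. Gfap went against the sum, at 41.2 and 51.8 CPM with the inhibitor and 8.12 and 7.80 CPM with its control. So did Sox9, at 76.2 and 83.4 CPM with the inhibitor and 14.7 and 13.9 CPM with its control. Of the 10 microglial markers 5 were called higher and 4 lower, while their summed levels overlapped (842 to 1037 CPM against 911 to 963 CPM). Neuron markers summed to between 135 and 137 CPM with the inhibitor and between 85.3 and 88.5 CPM with its control, with 4 of 6 tested genes called higher and 0 lower. Oligodendrocyte markers summed to between 1121 and 1129 CPM against 1243 to 1326 CPM, with 2 of 10 called higher and 2 lower. Of 5 OPC markers tested 1 was called higher and 1 lower, and their sums overlapped (3612 to 4652 CPM against 3754 to 3834 CPM). Pdgfra was at 1244 and 1544 CPM with the inhibitor and 903 and 907 CPM with its control. Cspg4 went the other way, at 352 and 423 CPM against 568 and 559 CPM. Endothelial markers summed to between 2.21 and 2.26 CPM against 11.03 to 11.7 CPM, with 1 of 4 called, lower. The endothelial fall was that of Flt1 (1.01 and 0.759 CPM against 10.6 and 10.0 CPM), and the other genes of that list stayed below 1 CPM in these libraries. The part of these lists in the receptor changes was not tested.

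This comparison and that of OLs with OPCs share the OPC anti-miR-ctl libraries, so the values are only set side by side. Fgfr1, Erbb3 and Egfr were higher both in OPC anti-miR-145 and in OL miR-ctl (log2 fold changes 0.57 and 0.51 for Fgfr1, 0.38 and 3.17 for Erbb3, and 1.08 and 2.51 for Egfr). Fgfr2 and Fgfr3 were lower with the inhibitor and higher in OLs (-0.998 and 4.11 for Fgfr2, and -1.28 and 2.52 for Fgfr3).

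**Figure D2:**
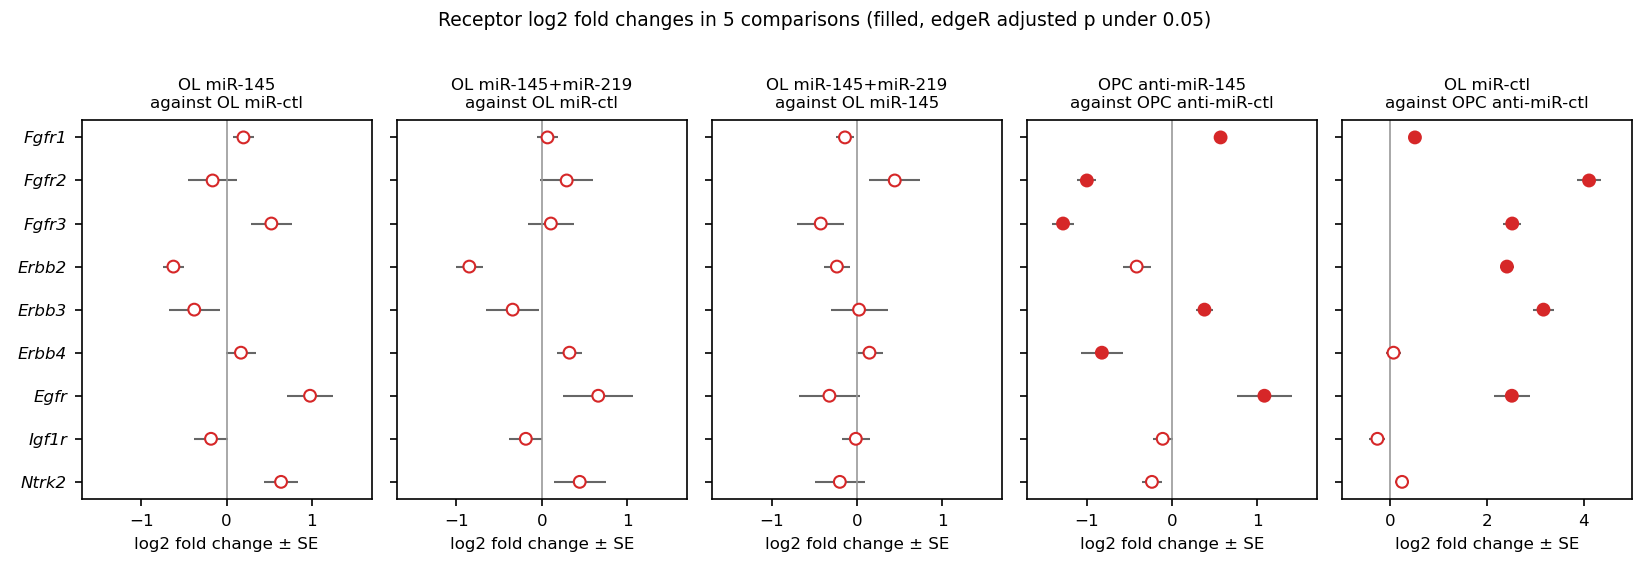
Log2 fold change of each receptor (x axis, with its SE, n = 2 libraries per group) in the 5 comparisons, with filled points for an edgeR adjusted p under 0.05. The first 4 panels share an x range and the fifth has a wider one. Filled points appear in the comparison of the OPC groups (6) and in that of OL miR-ctl with OPC anti-miR-ctl (6), and none among the OL groups.

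The third question was how the miR-145 mimic changed the receptors in OLs on DD5. edgeR called 0 of the 9 receptors and 0.00% of the 15461 genes tested. This fit did not pair the libraries by replicate number. A fit that did so called receptors and other genes, as given with the processing alternatives at the end. At an unadjusted p under 0.05 it found 3 receptors, Erbb2, Egfr and Ntrk2, and 13.4% of all genes. DESeq2 called 1 receptor, Erbb2, and 4.20% of all genes. The groups did not overlap for 4 receptors, with Fgfr1, Egfr and Ntrk2 higher and Erbb2 lower, against 47.3% of all genes (22.9% higher and 24.4% lower), so the share of receptors was near the background.

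Erbb2 was at 23.8 and 25.2 CPM in OL miR-145 and at 40.3 and 35.6 CPM in OL miR-ctl. The replicates of each group lay close together, and the log2 fold change was -0.62 ± 0.13 (edgeR adjusted p = 0.17, DESeq2 adjusted p = 0.018). Egfr was at 9.92 and 8.79 CPM against 5.80 and 3.71 CPM, a log2 fold change of 0.98 ± 0.27 (edgeR adjusted p = 0.24). Ntrk2 was at 1315 and 1035 CPM against 864 and 652 CPM, a log2 fold change of 0.64 ± 0.20 (edgeR adjusted p = 0.30). Fgfr1 was at 399 and 409 CPM against 330 and 377 CPM, a log2 fold change of 0.20 ± 0.13 (edgeR adjusted p = 0.53).

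The remaining receptors overlapped between OL miR-145 and OL miR-ctl. Fgfr3 was at 104 and 71.5 CPM against 71.6 and 50.9 CPM, and Erbb3 at 277 and 445 CPM against 375 and 569 CPM. Fgfr2 was at 193 and 283 CPM against 207 and 329 CPM. Their log2 fold changes were 0.52 ± 0.24, -0.38 ± 0.30 and -0.16 ± 0.29. The large errors of Fgfr2 and Erbb3 came with replicates that differed in the same sense in both groups. Erbb4 was at 15.4 and 19.0 CPM against 16.7 and 14.0 CPM, and Igf1r at 11.96 and 13.9 CPM against 16.9 and 12.6 CPM, with log2 fold changes of 0.17 ± 0.18 and -0.18 ± 0.20. The edgeR adjusted p of these 5 genes ran from 0.42 to 0.84.

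Addition of the miR-219 mimic gave no receptor call either. Between OL miR-145+miR-219 and OL miR-ctl edgeR called 0 of 9 receptors and 0.00% of 15436 genes, with 1 receptor (Erbb2) and 6.19% of genes below 0.05 before adjustment. Under DESeq2 Erbb2 and 0.687% of genes were called. Erbb2 was at 18.7 and 23.3 CPM with both mimics, below the 40.3 and 35.6 CPM of the control, a log2 fold change of -0.85 ± 0.16 (edgeR adjusted p = 0.79, DESeq2 adjusted p = 0.014). Erbb4 was at 19.9 and 18.5 CPM, above the 16.7 and 14.0 CPM of the control, with a log2 fold change of 0.33 ± 0.15 (edgeR adjusted p = 0.81). These were the 2 receptors whose groups did not overlap, against 36.8% of all genes (17.2% higher and 19.5% lower). Both mimic comparisons use the same OL miR-ctl libraries.

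For the other 7 receptors the log2 fold changes with both mimics ran from -0.34 (Erbb3) to 0.66 (Egfr). Egfr was at 9.99 and 5.03 CPM and Ntrk2 at 1301 and 756 CPM, a wide gap between replicates in each case. Fgfr2 was at 253 and 400 CPM, Fgfr3 at 79.7 and 51.9 CPM, Erbb3 at 282 and 459 CPM, Fgfr1 at 367 and 371 CPM and Igf1r at 12.01 and 13.8 CPM.

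Between OL miR-145+miR-219 and OL miR-145, edgeR called 0 of 9 receptors and 0.00% of 15501 genes, with 0 receptors and 1.47% of genes below 0.05 before adjustment. DESeq2 called 0 receptors and 0.0581% of genes. Fgfr1 and Erbb2 did not overlap, both lower with the 2 mimics, against 24.8% of all genes (13.2% higher and 11.6% lower). Their log2 fold changes were -0.14 ± 0.10 and -0.23 ± 0.15, with edgeR adjusted p-values of 1.00. The largest value was that of Fgfr2, 0.44 ± 0.30 with a 95% interval from -0.33 to 1.22.

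Within each OL group the 2 libraries differed in cell markers. In 3 of 3 OL groups the library with more oligodendrocyte marker RNA, which was replicate 2, had the higher level of Fgfr1, Fgfr2 and Erbb3. For Fgfr1 the replicates differed by 1.01 to 1.14 times, and for Fgfr2 and Erbb3 by 1.47 to 1.63 times. In 3 of 3 OL groups the library with more astrocyte marker RNA, replicate 1, had the higher level of Fgfr3, Egfr and Ntrk2. Erbb2, Erbb4 and Igf1r had no such order over the 3 groups. The oligodendrocyte and astrocyte sums ranked the replicates in opposite order, so any gene with 1 order in all 3 groups matches 1 of these lists. The share of all genes with 1 order in all 3 groups was not counted. Summed microglial markers were also higher in replicate 2, and summed OPC markers in replicate 1, in 3 of 3 OL groups. Against the OPC sum, Pdgfra was higher in replicate 2 of OL miR-145 (168 and 174 CPM) and Gpr17 in replicate 2 of OL miR-145+miR-219 (223 and 232 CPM). The astrocyte sums were 14488 and 9884 CPM in OL miR-145, 12021 and 7170 CPM in OL miR-145+miR-219, and 6909 and 5899 CPM in OL miR-ctl, so that each mimic library lay above both control libraries. In OL miR-ctl these sums differed by 1.17 times. There Aqp4 (168 and 186 CPM) and Gja1 (159 and 161 CPM) were higher in replicate 2, and the other astrocyte genes in replicate 1. All 10 astrocyte genes had a log2 fold change above 0 in OL miR-145 relative to OL miR-ctl, 9 without overlap. Of these 10 genes 0 were called by edgeR, 8 had an unadjusted p under 0.05 and 6 were called by DESeq2. Over all genes 22.9% were higher without overlap, 13.4% had an unadjusted p under 0.05 and 4.20% were called by DESeq2. All 10 microglial genes also had a log2 fold change above 0 in that comparison, 2 without overlap. OL miR-145 had the highest mean astrocyte sum, although its sums overlapped those of OL miR-145+miR-219. It also had the highest mean of Fgfr1, Fgfr3, Egfr and Ntrk2. For Fgfr3, Egfr and Ntrk2 its libraries overlapped those of OL miR-145+miR-219, and for Fgfr1 they did not. Erbb2 was lower in each library of both mimic groups than in both OL miR-ctl libraries. The part of these marker lists in the receptor values was not tested.

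**Figure D3:**
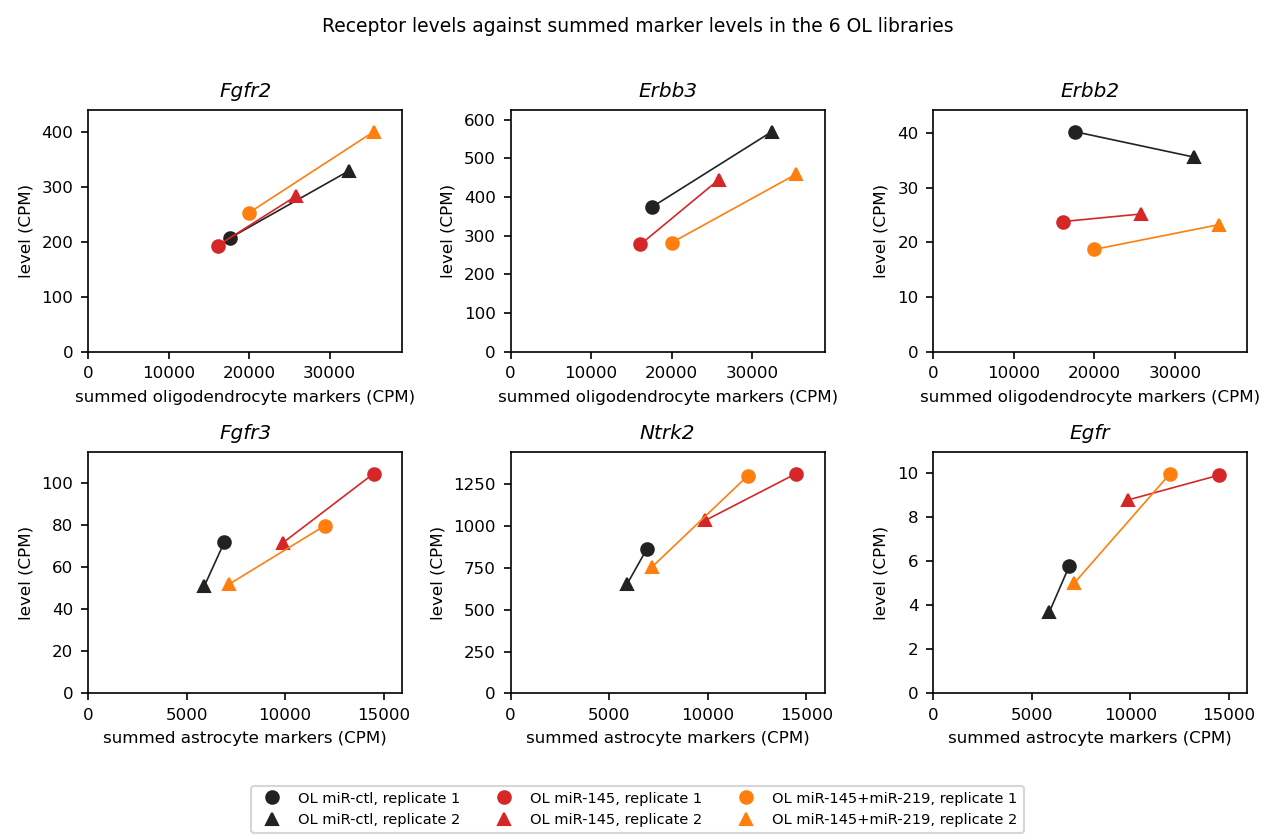
Level of 6 receptors (y axis, CPM) against the summed level of oligodendrocyte markers (upper row) or astrocyte markers (lower row) in CPM in the 6 OL libraries. A line joins the libraries of a group, with circles for replicate 1 and triangles for replicate 2. The lines of Fgfr2, Erbb3, Fgfr3, Ntrk2 and Egfr rise in all 3 groups, and Erbb2 in both mimic groups lies below both OL miR-ctl libraries. These 5 receptors are drawn against the list whose replicate order they matched. A rise shows only that receptor and marker sum were higher in the same replicate.

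The rest of the pathway was taken from 6 lists of 96 genes, of which 83 to 85 were tested in a comparison. Between OPC anti-miR-145 and OPC anti-miR-ctl 27 of 85 were called, 19 higher and 8 lower, against 28.1% of all genes. The median log2 fold change was 0.04 over these genes and 0.00 over all genes tested. Without replicate 1 of OPC anti-miR-ctl 16 were called (2350 of all 15138 genes), and without replicate 2 of OPC anti-miR-145 51 were (7133 of all 15281 genes).

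Among ligands 4 of 16 rose and 1 fell with the inhibitor. Igf1, a ligand of Igf1r, was at 11.7 ± 0.96 CPM against 3.50 ± 0.50 CPM (mean ± SD, 2 libraries per group), which is 1.73 ± 0.15 on the log2 scale (edgeR adjusted p = 0.00029). Igf2, the related ligand, was at 1.82 against 0.326 CPM, a log2 fold change of 2.46 ± 0.29 (edgeR adjusted p = 0.0012). Ligands of Igf1r rose, then, in a comparison in which the receptor itself was not called. Ereg (epiregulin), a ligand of Egfr and Erbb4, fell from 61 and 31 counts to 0 and 2 counts, a ratio of 0.021 with an exact 95% counting interval from 0.0025 to 0.077.

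Of the ligand-binding proteins, 3 of 7 rose and 2 fell. The IGF-binding proteins Igfbp3 (log2 fold change 1.82 ± 0.14) and Igfbp7 (1.28 ± 0.16) rose, Igfbp5 fell (-1.94 ± 0.21), and so did Sort1 (-0.27 ± 0.08), which encodes sortilin, a receptor of proneurotrophins. Of the other receptors 5 of 14 rose and 1 fell. Fgfrl1, an FGF receptor without a kinase domain, rose from 24.1 ± 0.15 to 68.9 ± 4.5 CPM (1.50 ± 0.09, edgeR adjusted p = 9.0e-05). Pdgfra, the receptor of PDGFAA, rose by 0.61 ± 0.11, and Ngfr, the p75 neurotrophin receptor, had a log2 fold change of -0.82 ± 0.19.

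Of 12 receptor inhibitors 3 rose and 3 fell. Socs3, an inhibitor of cytokine receptors, rose by 1.33 ± 0.10, and Lrig1, which lowers ErbB receptors, by 0.72 ± 0.10. Grb10, an inhibitor of insulin and IGF receptors, had a log2 fold change of -1.55 ± 0.20 and the phosphatase Ptprj one of -0.70 ± 0.11. Of 16 adaptors 2 rose (Shc2, 0.63 ± 0.09, and Plcg1, 0.31 ± 0.08) and 1 fell (Gab2, -0.40 ± 0.11). Of 20 genes of the ERK and PI3K cascade 2 rose, Pik3r2 (0.50 ± 0.09) and Map2k2 (0.47 ± 0.11), and 0 fell, the fewest calls among the lists. All values of named list genes not given otherwise passed edgeR's threshold, with adjusted p-values up to 0.049.

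**Figure D4:**
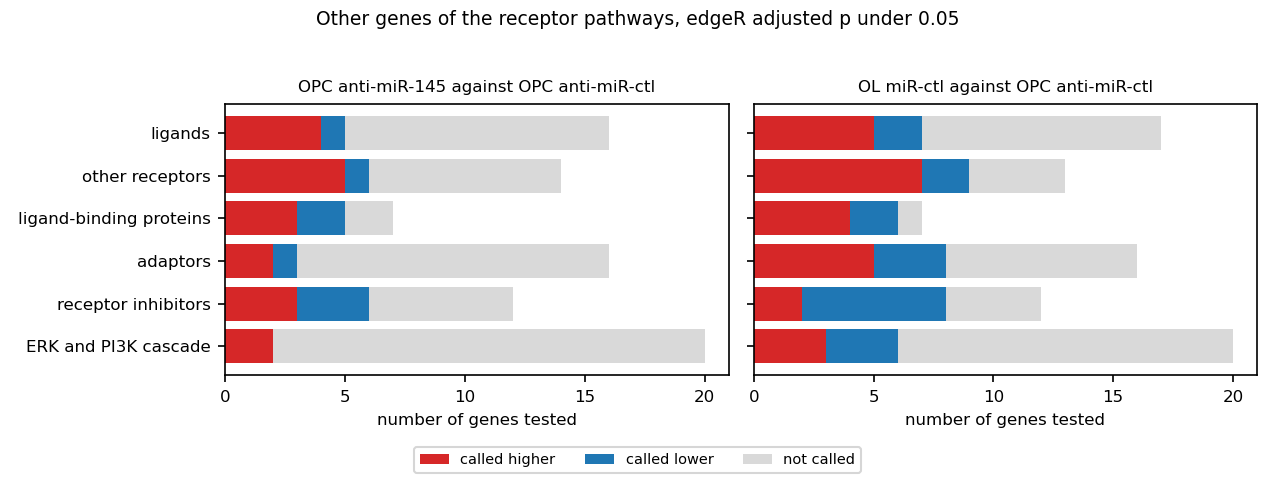
Number of genes tested (x axis, from 0) in each pathway list, by call (edgeR adjusted p under 0.05), in the comparison of the OPC groups and in that of OL miR-ctl with OPC anti-miR-ctl. The ERK and PI3K cascade had 2 of 20 and 6 of 20 genes called, where 28.1% and 57.5% of all genes were called. The receptor inhibitors called in OLs were mostly lower (6 of 8), where 28.8% of all genes were called higher and 28.7% lower.

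In OL miR-ctl relative to OPC anti-miR-ctl 44 of 85 pathway genes were called, 26 higher and 18 lower, against 57.5% of all genes. Their median log2 fold change was 0.13, against 2.41 for the 9 receptors. Without replicate 2 of OPC anti-miR-ctl 27 were called, and 4779 of all 15214 genes. Ligands rose in 5 and fell in 2 of 17. Igf2 rose by 6.76 ± 0.37, from 0.326 to 35.8 CPM. Btc (betacellulin), a ligand of Egfr and Erbb4, rose by 4.33 ± 0.69, although its OL libraries varied widely (26.8 ± 21.3 CPM, SD, n = 2). Ereg stood at 1 and 0 counts in OL miR-ctl against 61 and 31 counts, a ratio of 0.012 with an exact 95% counting interval from 0.00030 to 0.068. Nrg2, a neuregulin, had a log2 fold change of -0.98 ± 0.29.

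Of 13 other receptors tested 7 rose and 2 fell. Ngfr (4.39 ± 0.58) and Pdgfrb (3.69 ± 0.37) rose most on the log2 scale, while Pdgfra (-2.02 ± 0.18) and Ntrk3, which encodes TrkC (-0.90 ± 0.14), fell. Of 7 ligand-binding proteins 4 rose and 2 fell, with Igfbp7 at 4.45 ± 0.11 and Igfbp5 at 1.91 ± 0.15, and with Igfbp4 at -2.57 ± 0.17 and Igfbp2 at -1.80 ± 0.40. Receptor inhibitors were the one list with more genes called lower (6) than higher (2) of 12. Lrig1 (2.10 ± 0.24) and Errfi1, an inhibitor of ErbB kinases (1.16 ± 0.11), rose, and Lrig3 (-1.02 ± 0.14) and Grb14 (-0.95 ± 0.15) fell.

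Of 16 adaptors 5 rose and 3 fell. The phosphatase Ptpn11, which couples receptors to Ras, was at 821 ± 109 against 329 ± 1.1 CPM (1.31 ± 0.12), and Frs3, an FGF receptor adaptor, rose by 1.33 ± 0.14. Gab2 (-1.43 ± 0.13) and Shc3 (-1.13 ± 0.21) fell. In the ERK and PI3K cascade 3 of 20 rose and 3 fell. Mapk3, the kinase ERK1, rose by 1.18 ± 0.09 and Nras by 0.57 ± 0.09. The edgeR adjusted p-values of the list genes named for OL miR-ctl against OPC anti-miR-ctl ran up to 0.034.

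Among OL groups edgeR called 0 pathway genes in each of the 3 comparisons. Between OL miR-145 and OL miR-ctl 13 of 84 had an unadjusted p under 0.05, near the 13.4% of all genes, and DESeq2 called 5. These 5, named after their values were seen, were Igf1, Igf2, Pdgfrb, Igfbp2 and Igfbp5. Igf2 was at 12.9 and 11.4 CPM in OL miR-145 and at 44.7 and 26.9 CPM in OL miR-ctl, a log2 fold change of -1.55 ± 0.26 (DESeq2 adjusted p = 3.2e-05, edgeR 0.16). Igf1 was at 36.0 and 85.9 CPM against 18.1 and 28.2 CPM (1.40 ± 0.45, DESeq2 adjusted p = 0.023, edgeR 0.30). Igfbp2 (2.61 ± 0.54), Igfbp5 (1.13 ± 0.16) and Pdgfrb (1.15 ± 0.24) were higher with the mimic, with edgeR adjusted p-values from 0.16 to 0.17. Fibroblast and mural markers, a list that includes Pdgfrb, summed to between 50.5 and 85.3 CPM in OL miR-145 and between 20.97 and 30.7 CPM in OL miR-ctl, and their part in these values was not tested. With both mimics against OL miR-ctl 7 of 84 had an unadjusted p under 0.05 and DESeq2 called 1, and against OL miR-145 these numbers were 1 of 83 and 0.

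Genes whose level followed a receptor most closely over the 10 libraries were listed as a description. The measure was Pearson's r of log2(CPM + 1), and the 10 points share libraries and the large difference between OLs and OPCs. Candidates were genes with a mean of at least 10 CPM. Fgfr2 was followed by Eps15 and Plekhg3 (r = 0.998 each), Fgfr3 by Bcar3 (0.998) and Sparcl1 (0.997), and Erbb3 by Rasgef1c (0.998). Erbb2 was followed by Plxnb3 (0.991), which encodes a semaphorin receptor, and Col9a3 (0.990), and Egfr by Cluh (0.992) and Ank2 (0.990). The receptors with smaller differences between stages had looser neighbours, with Bbs2 (0.979) and Slco2b1 (0.976) for Fgfr1, Nedd9 (0.987) and Plpp3 (0.976) for Ntrk2, RGD1307100 (0.986) and Mtr (0.959) for Erbb4, and Med1 (0.964) and Cnot1 (0.955) for Igf1r.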

How the data were processed

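Reads of stranded mRNA libraries were assigned by the authors to rat GENCODE transcripts (Rnor6.0) with Salmon 0.12.0 and summed per gene with tximport. The deposited values are estimated counts without normalization, for 10 libraries in 5 groups, and 16.0% to 17.5% of a library's values were not whole. The authors also deposited their DESeq2 results for the OL mimic comparison (mean, log2 fold change, statistic and p-values), of which only the gene symbols were used here. They name 14561 of 16129 genes, and 137 of 156 listed symbols had an ID.

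Counts were rounded. Each comparison was fitted on its own 4 libraries, over all genes reaching 5 counts in 2 or more libraries, with edgeR 4.0.16 (TMM, glmQLFit, glmQLFTest; R 4.3.3), and adjusted by Benjamini-Hochberg over all genes tested. The SE was the size of the log2 fold change divided by the square root of F, and 95% intervals used the t quantile at the fit's degrees of freedom. Alternatives were DESeq2 1.42.0, its size factors, other count filters, 1 fit of the 5 groups together, a replicate block and each library left out. The scripts were tested on simulated data. Figures used Python 3.11.15 and matplotlib 3.10.9.

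Members and lists were chosen with earlier results of these data known. Named genes were the 9 receptors, in each list and comparison the genes of largest log2 fold change (2 called higher, 2 lower), and the 2 genes most correlated with each receptor, apart from 3 genes that are not reported here. Depth limits only Egfr and list genes of few counts, and counting intervals cover counting error only. RefSeq sequences are of GRCr8, a build other than that of the counts.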

Additional observations from a re-analysis of the deposited data

How the results depend on the processing

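With 2 libraries per group, calls of receptors depended on the processing more than their directions did. Against 0 receptors called in OL miR-145 relative to OL miR-ctl, DESeq2 called 1 (Erbb2), and DESeq2 likewise called 1 with both mimics. Pathway genes called in these comparisons, 0 with edgeR, were 5 and 1 with DESeq2, and 1 for OL miR-145 when all 5 groups shared a single fit. For the inhibitor in OPCs the single fit of all 5 groups called 2 receptors in place of 6, and 2552 of 16339 genes in place of 4348 of 15496.

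The replicate numbers were also fitted as a block. The labels tie no number to a common culture, and deviations of same-numbered libraries correlated at 0.40, 0.46 and 0.62 in the OL comparisons, -0.14 between the OPC groups and 0.06 between OLs and OPCs. With the block edgeR called 5 receptors in OL miR-145 relative to OL miR-ctl (Fgfr3, Egfr and Ntrk2 higher, Erbb2 and Erbb3 lower) and 17 pathway genes, with 2272 of all 15461 genes called, against 0 without the block. With both mimics against OL miR-ctl it called 3 pathway genes and 132 of all 15436 genes, and against OL miR-145 2 receptors, 2 pathway genes and 184 of all 15501 genes. It changed no receptor call in the other comparisons. A crossed pairing of the OPC libraries, chosen after seeing the data, gave 7 receptors and 5536 genes, against 3963 genes with the numbers as labelled.

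Leaving out each library in turn gave 3 to 7 receptors and 16 to 51 pathway genes for the inhibitor in OPCs, and 5 to 7 and 27 to 61 for OLs against OPCs. Calls over all genes moved as well, from 2350 to 7133 in OPCs and from 4779 to 10306 for OLs against OPCs. Without replicate 1 of OPC anti-miR-ctl 3 receptors, 16 pathway genes and 2350 of 15138 genes were called, and without replicate 2 of OPC anti-miR-145 51 pathway genes and 7133 of 15281 genes. Without replicate 2 of OPC anti-miR-ctl 27 pathway genes and 4779 of 15214 genes were called in the comparison with OLs. The cause was not tested. The sign of some uncalled log2 fold changes turned. For OL miR-145 against OL miR-ctl these were Fgfr2 (-0.47 to 0.20) and Igf1r (-0.38 to 0.044). With both mimics against OL miR-ctl they were Fgfr1 (-0.021 to 0.16), Fgfr2 (-0.083 to 0.66), Fgfr3 (-0.23 to 0.38) and Igf1r (-0.38 to 0.044), and against OL miR-145 Erbb3 (-0.37 to 0.42), Egfr (-0.90 to 0.089), Igf1r (-0.12 to 0.11) and Ntrk2 (-0.64 to 0.14). For OLs against OPCs it was Erbb4 (-0.11 to 0.21). No called receptor changed sign.

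Other count filters and size factors changed 2 receptor calls, both in OPCs. Erbb4 had an adjusted p of 0.052 with DESeq2's size factors and 0.061 with at least 10 counts, where that of Egfr was 0.056. CPM without TMM moved the 45 group means by -3.41% to 7.76%.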
